A study of Mus musculus with 40 samples.

Results

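The mouse transcripts for 10 enzymes that write or erase methyl groups on histone H3 lysines 4, 9 and 36 (H3K4, H3K9 and H3K36) were followed through oocyte growth. The members were all probe sets of the Affymetrix 430A and 430B arrays whose platform symbol was exactly Kmt2b, Kmt2d, Setdb1, Ehmt1, Ehmt2, Setd2, Kdm1a, Kdm1b, Kdm4a or Kdm5b. These are 10 of the 18193 genes that at least 1 probe set of either array names alone. The rule found 19 probe sets, 10 of the 22626 on 430A and 9 of the 22411 on 430B. Of these, 15 were tested, with at least 1 per gene, because at least 4 of the 20 arrays of their type reached a scaled signal of 100. The 4 not tested were 1 each of Kmt2d, Setdb1, Ehmt2 and Kdm5b.

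Oocytes of 5 follicle stages were compared, all from female mice that the labels give as SJLB6, with no allele or treatment named. The primordial stage was sampled on day 2 in pools of 400 oocytes, the primary stage on day 6 in pools of 90, the secondary stage on day 12 in pools of 60, the small antral stage on day 17 in pools of 30 and the large antral stage on day 24 in pools of 20. For 3 of the 4 small antral 430B samples, replicates 2 to 4, the extraction protocol instead gives day 12 and pools of 60, and the stage in the title was kept. Each stage had 4 samples on each array type, 40 in all, called biological replicates without naming animals, so p-values measure the spread between these samples. Stage, mouse age and pool size changed together and cannot be told apart.

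Methylation of H3K4 marks active promoters and enhancers, that of H3K36 follows transcribed gene bodies, and that of H3K9 is a mark of silent chromatin. In the growing oocyte these marks are laid down while DNA methylation is set up, which is known to depend on H3K36 methylation and on the removal of H3K4 methylation. Writers add the methyl groups, erasers remove them, and readers are proteins that bind them.

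For 4 genes that the results below turn on, 300 bases around an annotated start are shown, so that the region behind each transcript can be seen. They are RefSeq sequences of build GRCm38.p6, written 5′ to 3′ on the gene's strand, and capitals mark the GC box GGGCGG, a binding motif of Sp1-type factors, found on either strand. They lie at chr1:134559928-134560227 (plus strand) for Kdm5b, chr17:34898224-34898523 (plus strand, 1 of 2 starts listed) for Ehmt2, chr13:47043249-47043548 (plus strand) for Kdm1b and chr4:118179994-118180293 (minus strand) for Kdm4a.
Kdm5b: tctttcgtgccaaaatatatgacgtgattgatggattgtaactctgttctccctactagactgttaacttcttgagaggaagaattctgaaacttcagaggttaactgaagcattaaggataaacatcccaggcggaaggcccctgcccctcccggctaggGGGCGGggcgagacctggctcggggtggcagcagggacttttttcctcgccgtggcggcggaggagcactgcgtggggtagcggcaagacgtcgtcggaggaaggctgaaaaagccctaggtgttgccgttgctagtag
Ehmt2: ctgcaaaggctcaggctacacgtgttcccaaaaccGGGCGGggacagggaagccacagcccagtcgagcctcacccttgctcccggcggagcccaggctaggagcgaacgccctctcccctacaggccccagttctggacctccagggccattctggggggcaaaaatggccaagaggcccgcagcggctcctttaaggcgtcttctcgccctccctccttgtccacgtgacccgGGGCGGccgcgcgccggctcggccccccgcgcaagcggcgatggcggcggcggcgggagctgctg
Kdm1b: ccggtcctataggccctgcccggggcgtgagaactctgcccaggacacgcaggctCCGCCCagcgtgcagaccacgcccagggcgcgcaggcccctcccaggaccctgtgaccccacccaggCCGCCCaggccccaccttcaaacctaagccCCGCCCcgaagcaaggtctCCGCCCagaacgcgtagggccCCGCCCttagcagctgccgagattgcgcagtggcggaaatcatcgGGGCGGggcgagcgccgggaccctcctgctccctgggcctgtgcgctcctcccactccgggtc
Kdm4a: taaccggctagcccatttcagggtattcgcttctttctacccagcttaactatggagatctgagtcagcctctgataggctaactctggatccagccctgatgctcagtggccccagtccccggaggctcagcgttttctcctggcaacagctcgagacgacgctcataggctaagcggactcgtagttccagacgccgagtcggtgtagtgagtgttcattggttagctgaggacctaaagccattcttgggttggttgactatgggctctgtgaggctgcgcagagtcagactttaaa

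The GC box was present 1 time in the Kdm5b window, 2 times in the Ehmt2 window, 6 times in the Kdm1b window and 0 times in the Kdm4a window, and 35.7% of all 32851 listed mouse promoters held at least 1. CpG dinucleotides numbered 17, 28, 26 and 13 in the same order, against a median of 7 over all promoters. TAATTG, the element bound by the oocyte factor Nobox, and the TATA box TATAAA were found in none of these windows on either strand, and in 8.0% and 13.6% of all promoters. The E-box CANNTG, which reads the same on both strands, was found 2 times for Ehmt2, 1 time for Kdm1b and in neither other window, and in 72.3% of all promoters. A match or its absence describes these letters only.

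The oocyte identity of the samples was checked first. All 12 oocyte markers were tested, and the summed signal of the 11 on 430A lay between 57741 and 73602 in primordial samples and between 86421 and 135584 at the later stages. The summed signal of 6 granulosa cell markers on 430A lay between 789.5 and 1919 over all stages. That of 3 on 430B lay between 1834 and 3372, and most of it was Foxl2, with stage means of 1580 to 2111, a gene named here after its values were seen. Two-sided tests were made with limma on log2 of the scaled signal plus 32, so a fold change of a low signal is understated. A probe set was called where its Benjamini-Hochberg adjusted p over all tested probe sets of its array type was under 0.05. An array gives the level within a fixed total, and in such pooled samples fewer cells of a type and less RNA per cell cannot be told apart.

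The primordial values need a second reading. Columns 2 to 4 of that stage had the form of means with replicate 1: taking replicate 1 from a doubled value left at most 10 of 22626 probe sets on 430A below 0 and 0 of 22411 on 430B, against 1122 or more in pairs of other stages. Doubling and subtracting, with a floor at 0, gave "unmixed" values, and each change against the primordial stage is given with both. Unmixed primordial arrays correlated with each other at 0.858 to 0.937 on 430A, against 0.967 to 0.986 within the later stages, and at 0.786 to 0.814 on 430B, against 0.901 to 0.929, so p-values against this stage may be too small either way.

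The 10 enzymes did not move together over the 5 stages. Kmt2d, Setdb1 and Setd2 rose between the primordial and primary stages and were not called at any later step. Kdm1a rose at the same step and fell afterwards, and Kdm4a rose both at that step and at the last. Kdm1b and Ehmt2 fell during growth, and Kdm5b fell between the primordial and primary stages on 430A. Ehmt1 was not called in any comparison with the main scaling. The direction of its change against the primordial stage, and whether that was called, turned with the scaling.

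**Figure D1:**
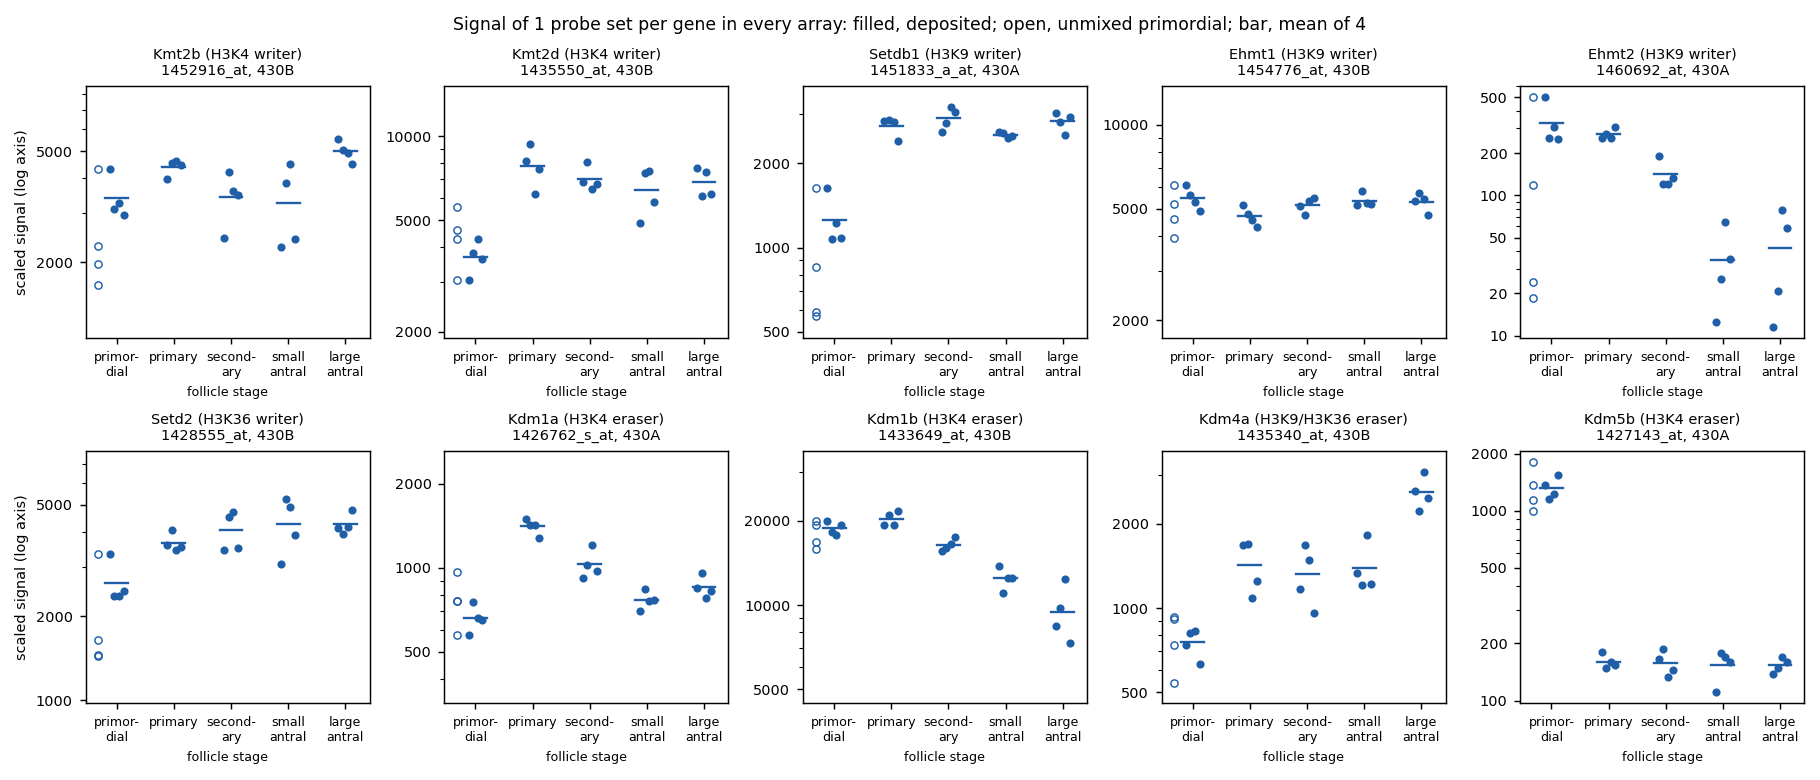
Scaled signal (log axis, arbitrary units) of 1 probe set per gene in each of the 20 arrays of its type, by follicle stage; filled points are deposited values, open points the unmixed primordial values, and bars the mean of the 4 deposited samples. Ehmt2 and Kdm1b step down through growth, Kdm4a steps up at the large antral stage, and the 4 primordial samples of Kdm5b, at 1156 to 1539, lie above all later ones.

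The question put to the first step is which of these enzymes differ between oocytes that have entered growth and those still at rest. Of the 15 tested probe sets, 8 were called for primary over primordial oocytes, 6 higher and 2 lower. Of all 34960 tested probe sets 42.9% were called, 18.6% higher and 24.3% lower. With unmixed values 8 were higher and 2 lower, where 35.2% of all were called, 16.8% higher and 18.4% lower. One of the lower calls, a Kdm5b probe set, was tested only through its primordial signals. With quantile normalization of the deposited values 6 were higher and 4 lower, and with arrays brought to the same median 9 and 2. Rises were 50.2% of all calls on 430A and 48.8% on 430B with quantile normalization, and 56.5% and 62.2% with the same median. With the main scaling they were 46.9% and 37.9%. The median log2 change of the 15 was 0.39 (0.85 unmixed), against -0.16 (-0.14 unmixed) over all tested probe sets.

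Among the H3K4 writers, Kmt2d methylates enhancers in many cell types. Its 430B probe set had scaled signals of 8139, 9351, 6201 and 7619 in primary oocytes, against 3071, 3810, 4297 and 3636 in primordial oocytes. Every primary sample lay above every primordial one. The log2 change was 1.07 ± 0.14 (SE, n = 4 per stage; adjusted p = 1.6e-06), and 0.85 unmixed. Kmt2b, the H3K4 methyltransferase needed for the bulk of this mark in mouse oocytes, had 3986 to 4626 in primary oocytes, against 2945.5 to 4310.2 in primordial oocytes, and the ranges overlapped. Its log2 change of 0.38 ± 0.18 was not called as deposited (adjusted p = 0.11) and was called unmixed, at 0.87 (adjusted p = 0.0078). With quantile normalization the change of Kmt2b was -0.01, so whether it rose at this step depended on the scaling. Under 3 of 10 other settings, the unmixed values among them, a rise of Kmt2b was called.

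Setdb1, an H3K9 methyltransferase that silences retroviral elements with Trim28, had signals of 2843, 2852, 2813 and 2402 in primary oocytes. Primordial oocytes had 1627, 1077, 1225 and 1084, all lower. The log2 change was 1.12 ± 0.11 (adjusted p = 6.3e-09) and 1.68 unmixed. The second Setdb1 probe set stayed at signals of 15.5 to 141.6 over all stages and was not called in any of the 6 comparisons.

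Ehmt1 and Ehmt2, also known as GLP and G9a, work as a pair that dimethylates H3K9. Ehmt1 had 4323 to 5162 in primary oocytes, against 4930 to 6071 in primordial oocytes. Its log2 change of -0.21 ± 0.09 was not called (adjusted p = 0.074; -0.06 unmixed), and it was -0.68 with quantile normalization and 0.10 with arrays brought to the same median. Under 1 of 10 other settings the fall of Ehmt1 was called. Ehmt2 had 254.9, 272.4, 255.9 and 305.3 in primary oocytes, against 499.9, 257.7, 305.5 and 253.8 in primordial oocytes. Replicate 1 stood apart, since the unmixed values of the other primordial samples were 24.3, 117.8 and 18.6. The log2 change of Ehmt2 was -0.20 ± 0.27 as deposited (adjusted p = 0.55) and 1.31 ± 0.50 unmixed (adjusted p = 0.035). Without replicate 1 the unmixed change was 2.01, so the primordial level of Ehmt2 rested on that sample.

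Setd2, the main enzyme for trimethylation of H3K36, had 3580, 4062, 3451 and 3541 in primary oocytes, against 3337, 2369, 2371 and 2456 in primordial oocytes. The ranges did not overlap, and the log2 change was 0.48 ± 0.15 (adjusted p = 0.014; 0.97 unmixed). With quantile normalization it was 0.17 and no longer called (adjusted p = 0.39).

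Of the erasers, Kdm5b showed the largest change of the 10 enzymes at this step. Kdm5b, a JARID1-type demethylase of trimethylated H3K4, had 180.5, 147.8, 160.7 and 153.8 in primary oocytes on its main 430A probe set. Primordial oocytes had 1360.1, 1156, 1231 and 1539. The log2 change was -2.81 ± 0.14 (adjusted p = 4.6e-14; -2.78 unmixed), which is 7-fold lower in primary oocytes on the scale used. A second 430A probe set had 10.6 to 46.6 in primary oocytes, against 366.9 to 468.1 in primordial oocytes. It reached 100 in the 4 primordial samples alone and so passed the filter only through the stage where it is high, and its difference is a description that lends the first probe set no support.

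The 430B probe set of Kdm5b did not share that fall. It had 674.6 to 890.1 in primary oocytes, against 493.8 to 623.4 in primordial oocytes, and its log2 change was 0.39 ± 0.18 (adjusted p = 0.10; 0.19 unmixed). As deposited the ranges did not overlap, and unmixed they did. Under 2 of 10 other settings this rise was called. The untested 430B probe set had 14.9 to 50.4 in primary oocytes, against 58.3 to 121.7 in primordial oocytes. The transcript region each probe set reads was not examined, so the tested fall is a statement about the main 430A probe set of Kdm5b.

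**Figure D2:**
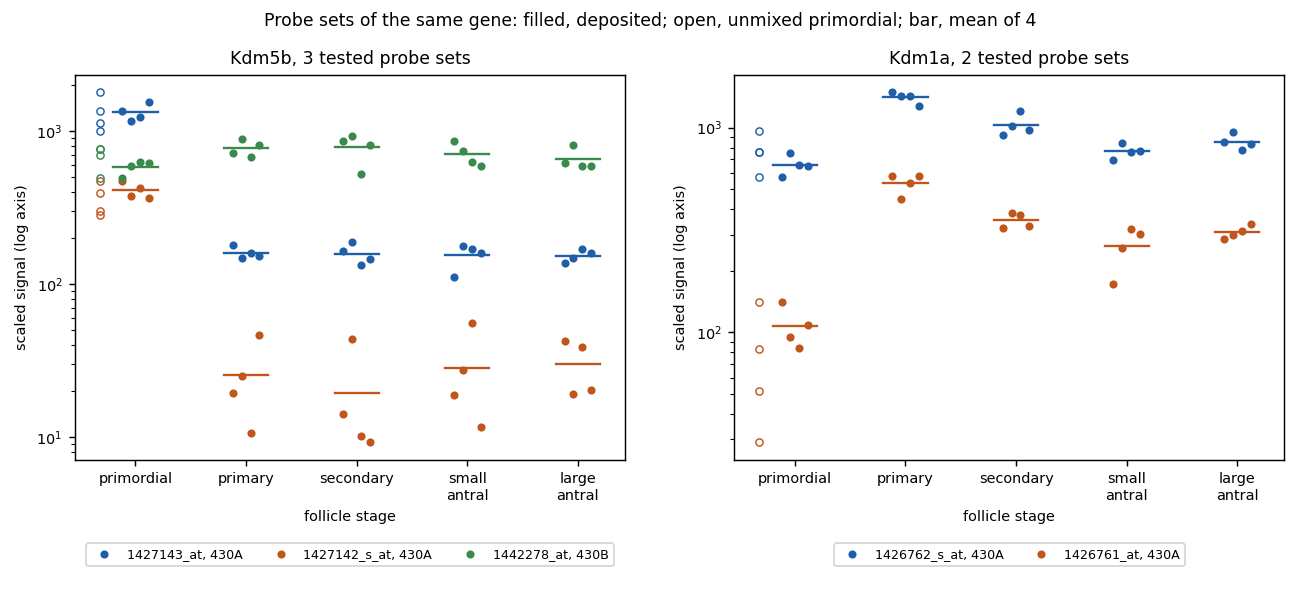
Scaled signal (log axis, arbitrary units) of each tested probe set of Kdm5b (left) and Kdm1a (right) by follicle stage; filled points are deposited samples, open points unmixed primordial values, bars the mean of 4. The 2 Kdm5b probe sets of 430A lie far lower after the primordial stage while that of 430B does not, and the 2 Kdm1a probe sets move together.

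Kdm1a and Kdm1b, the amine-oxidase demethylases LSD1 and LSD2, remove mono- and dimethylation of H3K4. Kdm1b is the one known to be required in mouse oocytes for DNA methylation at some imprinted genes. Kdm1a had 1494, 1427, 1425 and 1275 in primary oocytes, against 572.3, 754.1, 658.3 and 649.8 in primordial oocytes. The log2 change was 1.06 ± 0.11 (adjusted p = 8.9e-09; 0.87 unmixed), and that of its second probe set was 2.04 ± 0.16 (adjusted p = 9.6e-11; 2.50 unmixed). Both probe sets of Kdm1a therefore rose with no overlap of the samples. Kdm1b had 19300.3 to 21629 in primary oocytes, against 17758 to 19928 in primordial oocytes, and its log2 change of 0.11 ± 0.12 was not called (adjusted p = 0.51; 0.18 unmixed). Scaling decided its direction, with -0.43 under quantile normalization and 0.42 with arrays brought to the same median.

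Kdm4a, a demethylase of H3K9 and H3K36, had 1679, 1698, 1087 and 1245 in primary oocytes, against 737.2, 817.3, 826.4 and 630.3 in primordial oocytes. All primary samples were higher, and the log2 change was 0.88 ± 0.18 (adjusted p = 4.3e-04; 0.85 unmixed). Its second probe set stayed between 7.2 and 179.4 over all stages and was not called in any of the 6 comparisons.

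Markers of other cells moved at this step too. The summed signal of 5 theca, stroma and fibroblast markers on 430A was 651.2 to 976.3 in primary oocytes, against 1155 to 1629.6 in primordial oocytes, and Dcn, the fibroblast gene decorin, averaged 31.7 in primary and 302.2 in primordial oocytes (named after its values were seen). Of the 6 tested markers of that list, 2 fell and 0 rose. The 6 granulosa markers on 430A summed higher, at 1142 to 1433.5 in primary and 789.5 to 1089 in primordial oocytes. Of the 9 tested granulosa markers 1 rose and 1 fell, and of 3 endothelial markers 1 rose and 0 fell. Of 3 surface epithelium markers 1 rose and 1 fell, and of 4 blood and immune markers 0 were called. The part of these markers in the changes of the 10 enzymes was not tested.

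The growth phase, from the primary to the large antral stage, is not touched by the mixed primordial columns other than through the shared variance. Of the 15 tested probe sets 5 were called for large antral over primary oocytes, 1 higher and 4 lower, where 27.0% of all tested probe sets were called, 12.8% higher and 14.2% lower. The median log2 change was -0.05, against -0.01 over all. By gene, Ehmt2, Kdm1b and Kdm1a fell, Kdm4a rose, and the remaining 6 were not called. All 5 calls were kept under every alternative run.

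Ehmt2, whose signals were low, fell over growth. It had 11.6, 20.8, 78.3 and 58.2 in large antral oocytes, against the primary values of 254.9 to 305.3, with a log2 change of -2.13 ± 0.27 (adjusted p = 7.1e-07). In between it had 191.3, 120.4, 120.3 and 133.6 in secondary oocytes and 12.6, 25.5, 64.8 and 35 in small antral oocytes. The secondary and the small antral samples each lay below those of the stage before without overlap, and the antral stages overlapped each other. The change was -0.83 ± 0.27 for secondary over primary oocytes (adjusted p = 0.035), -1.42 ± 0.27 for small antral over secondary oocytes (adjusted p = 5.7e-04) and 0.12 ± 0.27 for large over small antral oocytes (adjusted p = 0.84). The call at the secondary stage was lost with 16 added before log2 (adjusted p = 0.069), and both single-step falls were lost where unmixed primordial values widened the shared variance (adjusted p of 0.38 and 0.091). All antral signals of Ehmt2 were under 100, so the size of its fall depends on the 32 added before log2, and it was -2.48 with 16 added and -1.71 with 64. Its other probe set stayed at 4.6 to 14.6 throughout and was not tested.

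Kdm1b stepped down at each stage. Its signals were 15567, 15949, 16606 and 17573 in secondary oocytes, 13797, 11046, 12547 and 12511 in small antral oocytes and 8402, 9745, 12431 and 7320.2 in large antral oocytes. From the primary stage on, only the antral stages overlapped each other. The change for large antral over primary oocytes was -1.12 ± 0.12 (adjusted p = 8.1e-08), or 2.18-fold lower, and every large antral sample lay below every primary one. The single steps were smaller: -0.31 ± 0.12 for secondary over primary oocytes (adjusted p = 0.16), -0.40 ± 0.12 for small antral over secondary (adjusted p = 0.045) and -0.42 ± 0.12 for large over small antral (adjusted p = 0.067). The middle call was lost under most alternatives, among them the replicate block (adjusted p = 0.067).

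Kdm1a, the sister enzyme, also fell over growth. It had 921.9, 1025, 1205 and 970.6 in secondary oocytes, 697.6, 842.5, 759.3 and 767.5 in small antral oocytes and 847.7, 957.4, 776.3 and 828.9 in large antral oocytes. Primary samples lay above all of these, and the antral stages overlapped. The change was -0.44 ± 0.11 for secondary over primary oocytes (adjusted p = 0.0054), -0.41 ± 0.11 for small antral over secondary (adjusted p = 0.0096) and -0.70 ± 0.11 for large antral over primary (adjusted p = 1e-05). The second probe set changed by -0.73 ± 0.16 over growth (adjusted p = 5.9e-04). The difference between the falls of Kdm1b and Kdm1a was not tested, since their probe sets lie on different array types, and neither was that between Ehmt1 and Ehmt2. With unmixed primordial values in the same fit, the single-step calls of Kdm1a had adjusted p of 0.054 and 0.074.

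Kdm4a was the one enzyme that rose over growth, and it did so at the last step. Its signals were 2631, 2216, 3076 and 2474 in large antral oocytes, against 1336, 1212, 1820 and 1216 in small antral oocytes. Secondary oocytes had 958.0 to 1675 and overlapped the small antral and the primary ones. The change was 0.89 ± 0.18 for large over small antral oocytes (adjusted p = 0.0061), or 1.86-fold higher, and 0.87 ± 0.18 for large antral over primary oocytes (adjusted p = 7.8e-04). Without the 3 small antral samples whose protocol gives the secondary age and pool size, the first of these was 0.93 with an adjusted p of 0.10. That value rests on 1 small antral sample, assumed to vary like the samples of the other stages.

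The 6 others were not called over growth. Kmt2b had 4501 to 5508 in large antral oocytes, against 3986 to 4626 in primary oocytes (log2 change 0.18 ± 0.18), and Kmt2d had 6099 to 7683 against 6201 to 9351 in primary oocytes (-0.18 ± 0.14). Setdb1, Ehmt1, Setd2 and the main Kdm5b probe set changed by 0.05, 0.17, 0.22 and -0.05. None of these 6 representative probe sets reached an adjusted p below 0.26. For large over small antral oocytes Kmt2b had 4501 to 5508, against 2277 to 4483 in small antral oocytes, with no overlap, and its change of 0.67 ± 0.18 narrowly missed the threshold (adjusted p = 0.055). Leaving out 1 sample at a time, this rise of Kmt2b was called in 4 of 20 cases. It was also called where 4 of 20 arrays were required at 200. Without the 3 samples with the doubtful protocol the change of Kmt2b was 1.12, against the 1 small antral sample left.

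Within an array the log2 signal of Kmt2b minus that of Kmt2d differed by 0.36 between stages, -0.45 ± 0.13 in large antral and -0.81 ± 0.29 in primary oocytes (SD, n = 4 each). A two-sided exact permutation test gave p = 0.114, where 0.0286 is the smallest p possible, and this was the only pair run, so its adjusted p is the same.

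**Figure D3:**
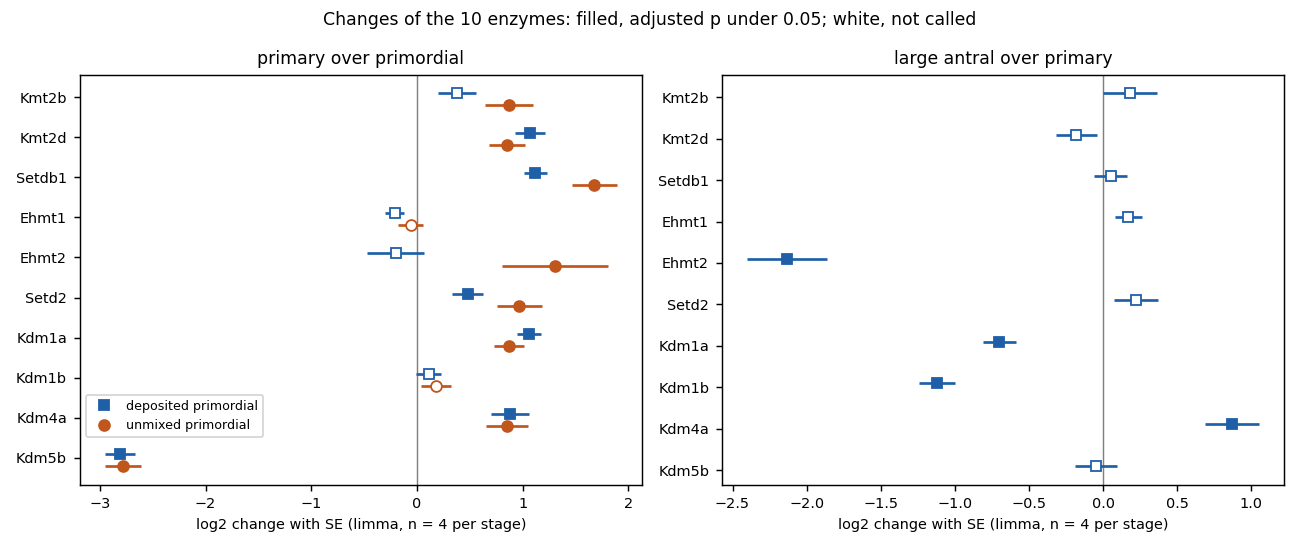
Log2 change with its SE (limma, n = 4 per stage) of 1 probe set per gene, for primary over primordial oocytes (left; squares deposited, circles unmixed primordial values) and large antral over primary oocytes (right). Filled symbols have an adjusted p under 0.05; Kdm5b lies at -2.81 on the left, and on the right Ehmt2, Kdm1b and Kdm1a are lower and Kdm4a higher.

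The single steps of growth were counted in the same way. For secondary over primary oocytes 3 of the 15 tested probe sets were called, all lower, where 11.2% of all were called, 6.01% higher and 5.17% lower. For small antral over secondary oocytes 3 were called, all lower, where 10.4% of all were called, 3.97% higher and 6.44% lower. For large over small antral oocytes 1 was called, Kdm4a, higher, where 5.72% of all were called, 2.41% higher and 3.31% lower. The falls came from Ehmt2 and both Kdm1a probe sets at the first of these steps and from Ehmt2, Kdm1a and Kdm1b at the next. With unmixed primordial values in the same fit, 0 of the 15 were called at either of these steps with falls.

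From end to end, for large antral over primordial oocytes, 11 of the 15 were called, 7 higher and 4 lower, where 50.4% of all were called, 21.2% higher and 29.2% lower. With unmixed values 6 were higher and 3 lower, where 42.7% of all were called, 19.4% higher and 23.3% lower. A Kdm5b probe set among the lower calls, deposited and unmixed, was tested only through its primordial signals. With quantile normalization of the deposited values 5 were higher and 5 lower, and with arrays brought to the same median 9 and 4. Rises were 50.5% of all calls on 430A and 49.2% on 430B with quantile normalization, and 55.6% and 58.2% with the same median. With the main scaling they were 46.6% and 36%. Kdm4a changed by 1.74 ± 0.18 (1.72 unmixed) and the main Kdm5b probe set by -2.86 ± 0.14 (-2.83 unmixed). Setdb1 changed by 1.17 (1.73 unmixed), Kmt2d by 0.89 (0.67), Setd2 by 0.70 (1.19) and Kmt2b by 0.56 (1.05), while Kdm1b changed by -1.01 (-0.94). Ehmt2 changed by -2.34 as deposited and by -0.83 unmixed, the second not called (adjusted p = 0.17). Leaving out 1 primordial sample at a time, that unmixed change of Ehmt2 ran from -1.25 to -0.12 and was called in 2 of 4 cases, the value without replicate 1 being -0.12. The main Kdm1a probe set changed by 0.36 as deposited and by 0.17 unmixed, the unmixed change not called (adjusted p = 0.31). The second Kdm1a probe set rose by more, 1.31 ± 0.16 as deposited and 1.76 unmixed, both called. Under quantile normalization neither Setd2 (0.31, adjusted p = 0.096) nor Kmt2b (0.07, adjusted p = 0.78) was called. Ehmt1 changed by -0.04 (0.11 unmixed), and by 0.31 with arrays brought to the same median. Of 10 other settings, 1 gave a called fall of Ehmt1 and 1 a called rise. This comparison shares its large antral and primordial samples with those above.

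Around these enzymes, 76 other genes of H3K4, H3K9 and H3K36 methylation were listed, and 72 had a tested probe set. For large antral over primary oocytes 17 rose, 19 fell and 36 were not called, with a median log2 change of 0.05, where 27.0% of all tested probe sets were called, 12.8% higher and 14.2% lower. For primary over primordial oocytes 30 rose and 15 fell (28 and 13 unmixed), where 42.9% of all were called (35.2% unmixed). With arrays brought to the same median 39 rose and 10 fell. With that scaling rises were 56.5% of all calls on 430A and 62.2% on 430B, against 46.9% and 37.9% with the main scaling. The lists were chosen with results of these data known, and nothing is read from their counts beyond the genes named.

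Of the H3K4 writers and their complex subunits, 3 of 18 rose and 4 fell over growth. Setd1b, the catalytic subunit of a SET1 complex, averaged 2140 ± 127 in large antral and 6465 ± 725 in primary oocytes (SD, n = 4), a log2 change of -1.58 ± 0.14 (adjusted p = 5.7e-09). Ash2l and Dpy30, core subunits shared by all such complexes, changed by -0.50 and -0.42. Cxxc1, which tethers a SET1 complex to CpG islands, rose by 0.47, and Men1 by 0.38 and Kdm6a by 0.39.

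Of the H3K4 erasers and their complex, 1 of 11 rose and 3 fell. Kdm5a, a relative of Kdm5b, averaged 5.2 ± 2.1 in large antral and 146.0 ± 32.9 in primary oocytes, and it fell (adjusted p = 3.5e-08). With a large antral signal that low, the size of the fall is set mainly by the 32 added before log2, so no size is given. Hdac1 and Phf21a, partners of Kdm1a in the CoREST complex, changed by -1.22 and -0.98. Glyr1, a nucleosome-binding partner of Kdm1b, rose by 0.52.

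Of the H3K9 writers and partners, 2 of 9 rose and 1 fell. Zfp644, a zinc finger partner of the G9a complex, averaged 54.9 ± 16.9 in large antral and 445.5 ± 46.8 in primary oocytes and fell (adjusted p = 9.4e-09), by a size that depends on the 32 added. Setdb2 rose by 0.40 and Prdm2 by 0.34. Of 6 H3K9 readers Mphosph8 rose by 0.55 and Uhrf1 changed by -0.42, the others not being called. Of 8 H3K9 erasers 3 rose, Kdm7a by 0.79, Kdm3a by 0.77 and Kdm4d by 0.65, and 3 fell, Jmjd1c with -1.10, Kdm3b with -0.56 and Phf8 with -0.51.

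Of the 7 tested genes listed here as H3K36 writers, 1 rose and 3 fell, and the list's median log2 change was -0.59. Whether each listed protein acts on H3K36 was not examined. Nsd1, which dimethylates H3K36, averaged 11062 ± 879 in large antral and 3999 ± 744 in primary oocytes, a log2 change of 1.48 ± 0.18 (adjusted p = 8.2e-07). Setd3, Nsd2 and Smyd2 changed by -0.69, -0.67 and -0.59. Of the 3 H3K36 erasers Kdm2b rose by 1.11 and Kdm8 changed by -0.65.

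Of 10 readers of H3K36 and H3K4 methylation 5 rose and 3 fell. Dnmt3l, the partner of the DNA methyltransferases that binds unmethylated H3K4, averaged 792.7 ± 46.3 in large antral and 282.0 ± 32.1 in primary oocytes, a log2 change of 1.40 ± 0.12 (adjusted p = 2e-09). Taf3, which binds trimethylated H3K4, rose by 1.12 and Ing1 by 0.84. Dnmt3a, the methyltransferase that reads H3K36, changed by -0.53 ± 0.20 (adjusted p = 0.037). Zmynd11 and Msl3 changed by -0.98 and -0.79.

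**Figure D4:**
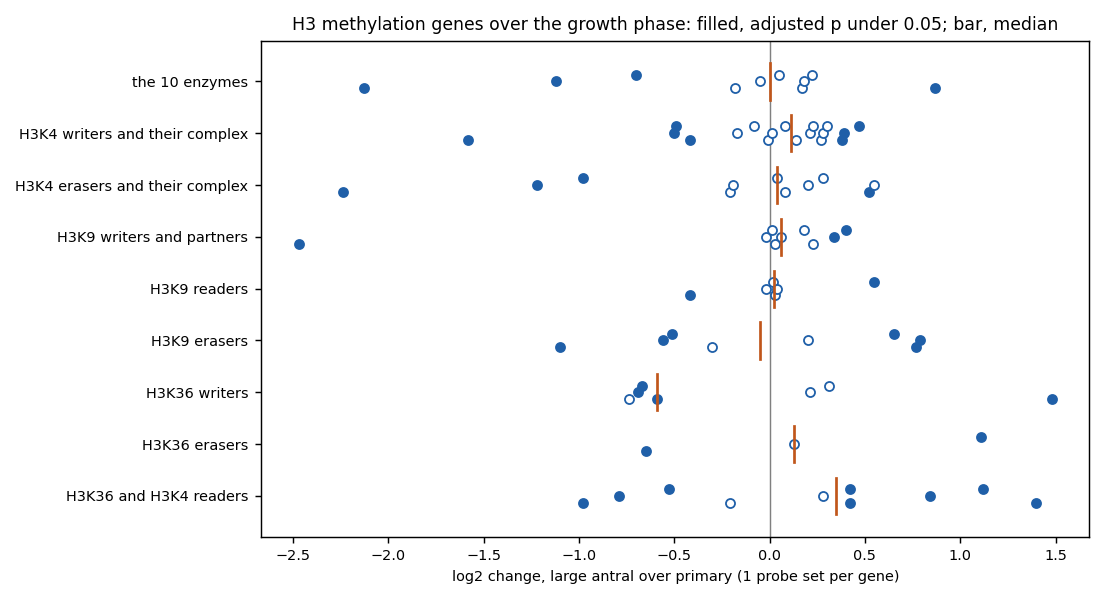
Log2 change for large antral over primary oocytes of 1 probe set per gene, for the 10 enzymes and 8 lists of other H3 methylation genes; filled points have an adjusted p under 0.05 and orange bars are list medians. Rises and falls occur in every list, 17 and 19 over the 72 tested genes, with Nsd1 and Dnmt3l at the far right. The places of Zfp644, Kdm5a and Ehmt2, at the left, depend on the 32 added before log2.

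The genes whose pattern was most like each enzyme's were found by Pearson's r of log2 signal over the 16 arrays from primary to large antral oocytes, among 9591 genes on 430A and 8606 on 430B. Kdm1b lay closest to Cdk13 (r = 0.982), Iah1 (0.972) and Slc5a3 (0.964). Ehmt2 lay closest to Ube2v1 (0.976), Man2b1 (0.959) and Rad9a (0.951), and Kdm1a to Ccdc88c (0.969), Esrp1 (0.955) and Foxj2 (0.955). Kmt2b lay closest to Atf6 (0.923) and Kdm4a to Cecr2 (0.920). The best matches of Setdb1, Setd2, Ehmt1, Kdm5b and Kmt2d were looser, from 0.780 for Setdb1 with Nefh to 0.843 for Kmt2d with Git2. These arrays share stages and scaling, so the values only describe likeness.

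Markers of other ovarian cells and of the oocyte also moved over growth. The summed signal of the 6 granulosa markers on 430A was 1736 to 1817 in large antral oocytes, against 1142 to 1433.5 in primary oocytes, and that of 3 endothelial markers was 656.1 to 803.5, against 381.7 to 518.6 in primary oocytes. Oocyte markers on 430A summed to 86421 to 95912 in large antral and 118139 to 123548 in primary oocytes, and 3 of the 12 rose while 7 fell. The part of these shifts in the falls of Ehmt2, Kdm1b and Kdm1a and the rise of Kdm4a was not tested.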

How the data were processed

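The deposited values are linear array intensities per probe set, made by the authors with MAS5 per the submitters' processing notes, whose version and scaling target are not given in the sources used here. Groups came from sample titles. 64 control probe sets per array type were left out. Signals were brought to a common 2% trimmed mean of 500 per array, and log2 of the signal plus 32 was used. limma 3.58.1 in R 4.3.3 (lmFit, eBayes with trend) fitted all 20 arrays of a type together, 430A and 430B apart, with 15 residual degrees of freedom. The procedure was tested on simulated data. Precision is limited by the number of arrays. Detection calls were not used.

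The members, lists and tests were chosen with earlier results of these data known. All member probe sets were accounted for. A gene was represented by its tested probe set with the highest mean log2 signal, 430A before 430B. List genes were named where called for large antral over primary oocytes, up to 3 rises and 3 falls a list by adjusted p. Alternatives covered primordial unmixing, scaling, the value added, the filter, the trend, the samples fitted, a replicate block and leaving out samples.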

Additional observations from a re-analysis of the deposited data

Results flagged for a closer look

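Of 75 groups of 4 samples, 1 per tested member probe set and stage, 5 held a sample far from the other 3 by Dixon's test at 95%, and chance alone gives about 1 in 20 such groups. Setdb1 had 2402 in primary replicate 4, against 2813 to 2852 in the others. Ehmt1 had 5788 in small antral replicate 2, against 5147 to 5233. Setd2 had 3337 in primordial replicate 1, against 2369 to 2456 in the 3 columns that have the form of means with it. Kdm5b had 43.7 on its lower 430A probe set in secondary replicate 2, against 9.3 to 14.2, all low signals. The 430B probe set of Kdm5b had 811.9 in large antral replicate 2, against 587.5 to 613.6.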

How the results depend on the processing

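Of 964 changes of a probe set recomputed under other settings, 927 kept their direction or stayed uncalled and kept their side of the threshold, 20 lost a call, 14 gained one and 3 turned direction with a call on either side. The 3 that turned were Ehmt2 for primary over primordial oocytes (1.31 unmixed, and 2.01 and 1.40 unmixed without primordial replicate 1 or 3, a check chosen after seeing the data), Kdm1b for the same step (-0.43 with quantile normalization) and Ehmt1 for large antral over primordial oocytes (0.31 with arrays brought to the same median). The number of the 15 probe sets called fell to 0 for secondary over primary and to 0 for small antral over secondary oocytes with unmixed primordial values, whose wider spread enters the shared variance, while without the primordial stage they were 3 and 2. For large over small antral oocytes it was 2 with quantile normalization and 2 with 4 of 20 arrays required at 200, and the cause was not tested. Leaving out samples one at a time gave 8 to 9 calls for primary over primordial, 2 to 3 for secondary over primary, 2 to 3 for small antral over secondary, 1 to 3 for large over small antral, 5 throughout for large antral over primary and 10 to 11 for large antral over primordial oocytes. For large over small antral oocytes the 3 calls came without small antral replicate 2, and 2 came without primordial replicate 1, secondary replicate 1, small antral replicate 3 or large antral replicate 1 or 3. The Kmt2b to Kmt2d difference lay between 0.28 and 0.49. Ehmt2 for secondary over primary oocytes lost its call without any primary sample and without secondary replicate 2, 3 or 4.

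Same-numbered samples correlated at -0.11 to 0.13, with no comparison where all 4 numbers exceeded 0.1. On 430A, 3 of 4 samples correlated best with their own number for secondary over primary and for large antral over primordial oocytes. In every other comparison 0 or 1 of 4 did so. Such weak values cannot decide whether the numbers mark a shared origin, and the main fit did not use them. With the replicate block 8, 3, 2, 1, 5 and 11 probe sets were called in the order above, and Kdm1b for small antral over secondary oocytes lost its call (adjusted p = 0.067).

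On 430B the median change of all probe sets for primary over primordial oocytes was -0.23, and 0.05 with arrays brought to the same median, where rises were 37.9% and 62.2% of the calls. On 430A rises were 46.9% and 56.5%.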
